A study of Mus musculus with 32 samples.

Results

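The Slit, Robo and netrin guidance genes were read in RNA sequencing libraries from the forebrain (Fb) and midbrain (Mb) of mouse embryos at E9.5. The 10 genes are the ligands Slit1, Slit2, Slit3 and Ntn1, the Slit receptors Robo1 and Robo2, and the netrin receptors Dcc, Neo1, Unc5b and Unc5c. They were chosen by symbol as genes of these pathways and matched by Ensembl identifier. All 10 were found among the 48576 identifiers of the files. The study asked how embryos that lack type II cadherins, adhesion molecules of the neural tube, differ from WT in these tissues.

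Each tissue had 6 WT, 4 TKO_Ex, 3 DKO_Ex and 3 DKO_CD libraries, 32 in all, and the strain label of every sample is B6C3F1. TKO_Ex embryos carry the triple knockout of Cdh6, Cdh8 and Cdh11 and have exencephaly. DKO_Ex embryos have exencephaly with a double knockout that the labels give as Cdh8 and Cdh11. DKO_CD embryos have a cranial defect with a double knockout that the labels give as Cdh6 and Cdh8 and the study's text as Cdh8 and Cdh11. The knockouts are small CRISPR deletions within the exon that holds the translation start, made to shift the reading frame, and act in every cell. Mutants came from matings of triple heterozygotes and WT embryos from separate WT matings, so genotype and litter cannot be told apart. Tissue was frozen first and genotyped afterwards from yolk sacs, as for samples kept by embryo, though the sources used here do not state the number of embryos in a library. Each tissue is a mixture of cells, so fewer cells of a type and less RNA per cell cannot be told apart.

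The values are FPKM, fragments per length of transcript and per mapped fragments of the library. The estimated depth ranged from 2.07 to 3.44 M fragments (median 2.765 M), read from the smallest step between values. By group, the median ran from 2.31 M in the TKO_Ex Mb to 3.41 M in the DKO_Ex Mb. Genes were tested if their mean across the 32 libraries reached 1 FPKM, which 13441 genes and 9 of the 10 members did. Dcc, at a mean of 0.315 FPKM, was the exception. Differences below are log2 differences of FPKM + 1 with their standard errors (SE), a scale that understates the change of low genes. Tests of many genes were made with limma, and p-values were adjusted by the Benjamini-Hochberg method over all genes tested. A gene is said to have changed where that adjusted p was under 0.05.

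Some libraries stood apart before any member was read. Cdh6, a targeted gene, was at 0.388, 0.353, 3.10 and 0.345 FPKM in the TKO_Ex Mb and at 1.84, 0.766, 3.74 and 0.572 FPKM in the TKO_Ex Fb, in replicate order, against 1.04 to 3.55 FPKM in the WT Mb and 2.04 to 4.0 FPKM in the WT Fb. The libraries labelled TKO_Ex replicate 3 were thus within the WT range of their tissue. Cdh8 was at 0.851 to 2.32 FPKM in the TKO_Ex Mb and 1.14 to 10.1 FPKM in the WT Mb, and Cdh11 at 14.5 to 16.6 and 17.9 to 28.7 FPKM. In the libraries headed DKO_Ex, Cdh6 was at 1.86 to 4.34 FPKM, Cdh8 at 0.423 to 2.49 FPKM and Cdh11 at 17.1 to 18.7 FPKM. In those headed DKO_CD, Cdh6 was at 1.29 to 3.43 FPKM, Cdh8 at 0.449 to 1.47 FPKM and Cdh11 at 12.7 to 27.2 FPKM. The deletions leave most of each transcript in place, so a level within the WT range does not by itself settle a label for any of the 3 genes. For Cdh6, though, all other TKO_Ex libraries were below the WT range of their tissue. Only those labelled replicate 3 were within it, in both tissues. Their genotype was not tested here. WT Mb replicate 5 had 3.57 FPKM of En1, a midbrain gene, against 32.0 to 59.0 FPKM in the other 5 WT Mb libraries. In DKO_CD Fb replicate 2 the forebrain genes read below summed to 149 FPKM, against 240 and 305 FPKM in the group's other Fb libraries. Its surface ectoderm genes summed to 194 FPKM, against 70.7 and 87.8 FPKM. In TKO_Ex Fb replicate 4 the same sums were 134 and 210 FPKM. The other TKO_Ex Fb libraries had 190 to 295 FPKM of forebrain genes and 81.5 to 154 FPKM of surface ectoderm genes. For 12 files of the DKO libraries, heading and record disagree on which DKO group the library belongs to, and the headings were followed.

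Slits are secreted proteins that repel axons and migrating cells through Robo receptors. Netrin-1, the product of Ntn1, is known from the floor plate, where it attracts commissural axons through DCC and repels other axons through UNC5 receptors alone or together with DCC. Neogenin, the product of Neo1, is a close relative of DCC that binds netrins and repulsive guidance molecules, and it is widely expressed in neuroepithelium. At the stage sampled the cranial neural tube of a normal embryo has just closed, while with exencephaly it has failed to close, and its wall is mostly dividing neuroepithelium, in which the first neurons appear.

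Unc5b (ENSMUSG00000020099) lies at chr10:60762593-60831581 on the minus strand of GRCm38 and Unc5c (ENSMUSG00000059921) at chr3:141465216-141834924 on the plus strand. Ntn1 (ENSMUSG00000020902) lies at chr11:68209364-68400823 on the minus strand and Neo1 (ENSMUSG00000032340) at chr9:58874687-59036441 on the minus strand. Among the Slit genes, Slit1 (ENSMUSG00000025020) lies at chr19:41600257-41743665 on the minus strand, Slit2 (ENSMUSG00000031558) at chr5:47983138-48307733 on the plus strand and Slit3 (ENSMUSG00000056427) at chr11:35121224-35708507 on the plus strand. Robo1 (ENSMUSG00000022883) and Robo2 (ENSMUSG00000052516) are both on the same chromosome, at chr16:72308306-73046095 on the plus strand and chr16:73891839-74411825 on the minus strand. Dcc is ENSMUSG00000060534. All positions are whole gene spans of GENCODE M21.

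The sequence just upstream of the start is shown for Unc5b, the member with the smallest adjusted p between the WT tissues, and for Slit2, the member with the smallest WT difference. Both are read 5′ to 3′ on the gene's strand from RefSeq promoters of GRCm38.p6, at chr10:60831582-60831831 (minus strand, 250 bases) and chr5:47982905-47983137 (plus strand, 233 bases). Capitals mark the GC box letters GGGCGG and the TATA letters TATAAA, each searched on both strands.
Unc5b: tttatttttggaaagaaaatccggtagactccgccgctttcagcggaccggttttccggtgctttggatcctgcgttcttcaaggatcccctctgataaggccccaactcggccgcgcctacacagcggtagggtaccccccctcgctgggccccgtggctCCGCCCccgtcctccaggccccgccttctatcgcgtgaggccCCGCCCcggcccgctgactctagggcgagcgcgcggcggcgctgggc
Slit2: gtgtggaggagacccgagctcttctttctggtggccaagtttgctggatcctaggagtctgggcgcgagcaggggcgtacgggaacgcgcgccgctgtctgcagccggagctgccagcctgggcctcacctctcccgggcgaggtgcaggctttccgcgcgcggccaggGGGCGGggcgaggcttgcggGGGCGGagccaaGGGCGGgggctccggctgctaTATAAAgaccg
Both stretches are rich in G and C, at 66.8% and 70.4%. The Unc5b stretch held the GC box letters at 2 places and no TATA letters, and the Slit2 stretch held them at 3 places with TATA letters at 1 place close to the start. Among all 32851 RefSeq mouse promoters, 32.7% held GGGCGG and 12.4% held TATAAA in the 250 upstream bases. Neither stretch held the E box letters CAGCTG, the homeodomain letters TAATTA or the forkhead letters TGTTTAC, which 13%, 4.84% and 3.17% of promoters held. These are matches of letters and not measured sites. Of the 10 members, 7 had an entry among the promoters, and Slit1, Ntn1 and Dcc did not.

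In the WT Fb the members stood in the order Ntn1 (18.8 FPKM on average), Neo1 (13.3), Unc5b (10.5), Slit2 (5.95), Robo1 (5.60), Robo2 (3.79), Slit3 (2.38), Unc5c (1.08), Slit1 (0.780) and Dcc (0.0676). Only the last pair in that order, Slit1 and Dcc, had ranges over the 6 libraries that did not overlap. In the WT Mb the order was Ntn1 (53.1 FPKM), Neo1 (15.3), Robo1 (6.82), Slit2 (6.04), Slit1 (5.27), Unc5c (3.40), Robo2 (2.65), Unc5b (2.52), Slit3 (1.67) and Dcc (0.535). There Ntn1 was separate from Neo1 and Neo1 from Robo1, and all lower neighbours overlapped. FPKM is per length, so these levels can be set side by side across genes. They rest on few fragments for the low members. Over all libraries the median of the estimated fragments behind a value was 543 for Ntn1, 288 for Neo1, 82 for Unc5b, 44 for Slit1, 24 for Slit3 and 8 for Dcc.

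The tissue labels were checked against regional genes. All 7 midbrain genes read, En1, En2, Wnt1, Pax5, Pax7, Pax8 and Lmx1b, were higher in the WT Mb, and all 8 forebrain genes, among them Six3, Lhx2 and Rax, were lower. Six3 averaged 39.1 FPKM in the WT Fb and 0.491 FPKM in the WT Mb, and Rax had 0 FPKM in each of the 6 WT Mb libraries. In the hindbrain list, Gbx2, a gene of the isthmus and anterior hindbrain, was at 6.85 FPKM in the WT Mb, while Hoxb1 was listed at 0 in every WT library.

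Unc5b, a netrin receptor also known from endothelium, was a forebrain gene in these libraries. In the WT Fb its level was 10.4, 12.8, 8.25, 10.4, 10.8 and 10.2 FPKM in replicates 1 to 6, and in the WT Mb it was 2.13, 3.08, 3.87, 1.68, 2.54 and 1.83 FPKM. Every Fb library was above every Mb library, and the mean was 4.15 times as high in the Fb. The difference, Mb minus Fb, was -1.73 (SE 0.145, limma adjusted p = 9.2e-10). The same held in each mutant group, where the Fb and Mb libraries did not overlap either. In TKO_Ex the Fb libraries were at 13.3, 8.86, 8.05 and 8.29 FPKM and the Mb libraries at 1.47, 1.56, 2.43 and 1.60 FPKM, a difference of -1.93 (SE 0.178, adjusted p = 9.37e-09). In DKO_Ex the values were 9.21, 10.9 and 9.74 FPKM in the Fb and 1.69, 1.48 and 1.67 FPKM in the Mb, a difference of -2.07 (SE 0.205, adjusted p = 6.24e-08). In DKO_CD they were 12.7, 7.33 and 10.1 FPKM in the Fb and 2.28, 2.26 and 2.39 FPKM in the Mb, a difference of -1.71 (SE 0.205, adjusted p = 2.5e-06). Of the members, Unc5b had the smallest adjusted p in all 4 groups.

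Beside this contrast, the 6 endothelial genes read (Cdh5, Kdr, Pecam1, Tek, Tie1 and Emcn) summed to 27.5 to 40.5 FPKM in the WT Fb and 26.2 to 46.2 FPKM in the WT Mb. The most abundant, Cdh5, was at 11.5 FPKM in the Fb and 9.13 FPKM in the Mb, and 0 of the 6 differed between the WT tissues by limma, also at an unadjusted p under 0.05, which 21.2% of all genes tested had. Mesenchyme and neural crest genes were lower in the Mb (5 of 7), with a sum of 147 to 177 FPKM in the WT Fb and 59.6 to 98.9 FPKM in the WT Mb, with Twist1 the most abundant. Surface ectoderm genes were lower there as well (4 of 5), at sums of 52.4 to 84.5 and 21.7 to 34.7 FPKM, with Krt18 the most abundant in the WT Fb and Krt8 in the WT Mb. The part of these cells in the level of Unc5b was not tested.

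Unc5c, the other UNC5 receptor among the members, went the other way. In the WT Fb it was at 1.58, 1.41, 1.38, 0.740, 0.629 and 0.724 FPKM and in the WT Mb at 3.16, 3.24, 2.94, 3.93, 4.25 and 2.89 FPKM. The ranges did not overlap, and the mean in the Mb was 3.16 times that in the Fb (difference 1.10, SE 0.154, adjusted p = 6.63e-06). In TKO_Ex the Mb mean was 1.92 times the Fb mean (0.69, adjusted p = 0.0271), with the highest Fb library, at 2.69 FPKM, above the lowest Mb library, at 2.57 FPKM. That Fb library was replicate 4, which had the lowest forebrain sum of its group. The ratio of means was 2.24 in DKO_Ex (0.77, adjusted p = 0.0387) and 2.84 in DKO_CD (1.08, adjusted p = 0.00316), without overlap. The TKO_Ex call was lost without Fb replicate 1 (adjusted p = 0.104), Fb replicate 2 (0.123), Mb replicate 1 (0.0607), Mb replicate 2 (0.0557) or Mb replicate 4 (0.125). The adjusted p in DKO_Ex was 0.0702 to 0.145 when any library of the group was left out. With the replicate number as a block it was 0.0868 in DKO_Ex and 0.0659 in TKO_Ex. The DKO_Ex call was also lost with a pseudocount of 0.1 (adjusted p = 0.0512), no filter (0.0589), median-of-ratios scaling (0.0521) or quantile normalization (0.0545), and the TKO_Ex call was at the threshold with a pseudocount of 0.1 (0.05).

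**Figure D1:**
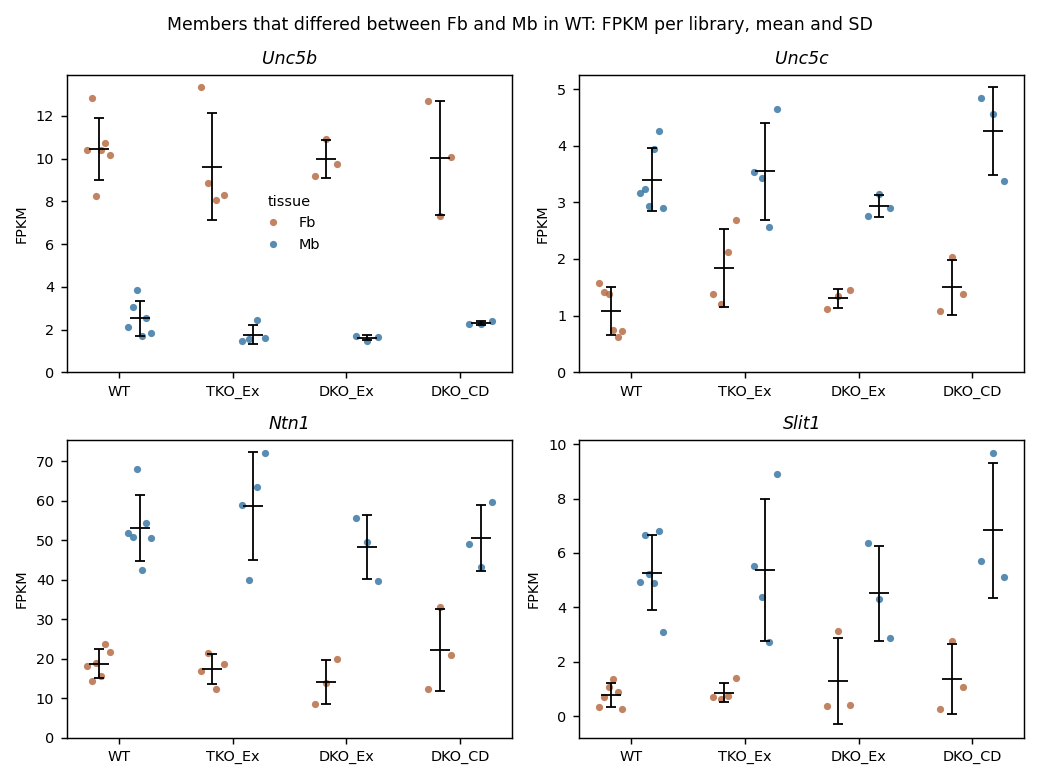
FPKM of Unc5b, Unc5c, Ntn1 and Slit1 (y axes) in each of the 32 libraries by group (x axes), Fb in brown and Mb in blue, with black bars for the mean and SD. Unc5b is high in the Fb and low in the Mb of all 4 groups, and the other 3 genes are higher on average in the Mb.

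With opposite changes, the balance of the 2 UNC5 receptors differed between the tissues. Within a library, Unc5b was 3.08 to 17.1 times Unc5c in the 16 Fb libraries, with a median of 7.74, and 0.344 to 1.31 times Unc5c in the 16 Mb libraries, with a median of 0.587. Unc5c was above Unc5b in 0 of 16 Fb libraries and 15 of 16 Mb libraries, the exception being WT replicate 3. Of the other UNC5 receptors, Unc5a averaged 1.5 FPKM in the WT Fb, where Unc5c averaged 1.08 FPKM, and 1.58 FPKM in the WT Mb. Unc5d was at 0.0887 and 0.0628 FPKM.

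**Figure D2:**
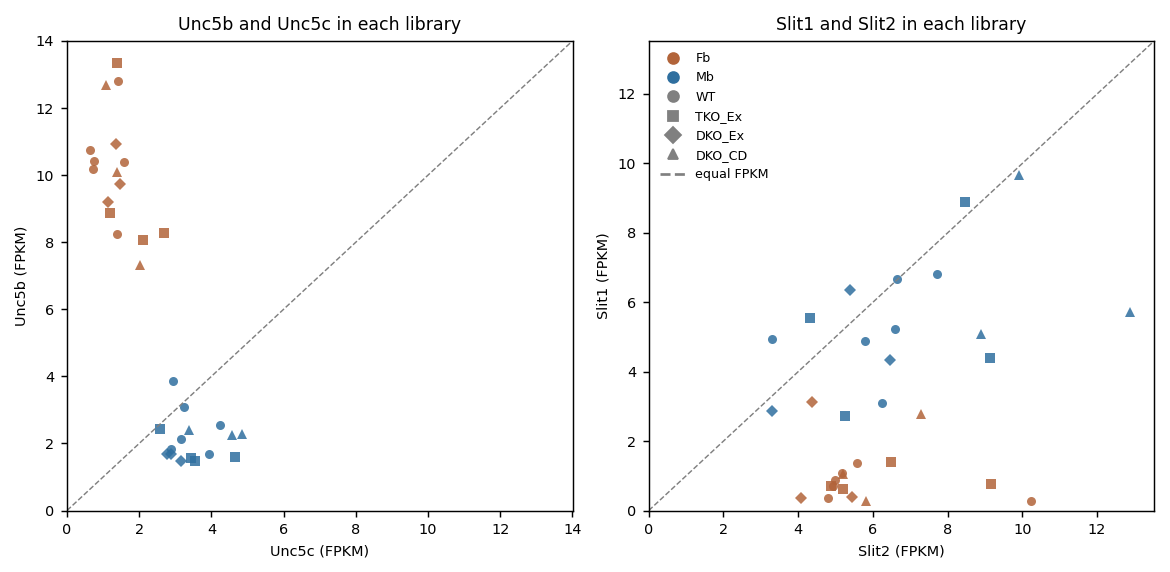
Each point is a library, with Unc5b against Unc5c on the left and Slit1 against Slit2 on the right, in FPKM on linear axes (colour, tissue; shape, group; dashed line, equal FPKM). The UNC5 receptors place Fb and Mb libraries in separate corners, while Slit1 is higher on average in the Mb of each group, with an overlap at the DKO_Ex Fb library of 3.12 FPKM, and Slit2 of the WT, TKO_Ex and DKO_Ex libraries overlaps between the tissues.

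Ntn1, the netrin ligand, was the most abundant member on average in both WT tissues and was higher in the Mb. The WT Mb libraries had 52.0, 50.8, 68.1, 42.4, 54.3 and 50.7 FPKM and the WT Fb libraries 18.2, 14.3, 18.9, 15.7, 23.8 and 21.8 FPKM. The lowest Mb library was above the highest Fb library, and the mean was 2.83 times as high (difference 1.46, SE 0.197, adjusted p = 4.14e-06). The ranges were apart in the mutants too. In TKO_Ex the Fb spanned 12.3 to 21.4 FPKM and the Mb 39.9 to 72.2 FPKM (1.70, adjusted p = 1.9e-05). In DKO_Ex the spans were 8.50 to 19.8 and 39.7 to 55.7 FPKM (1.77, adjusted p = 9.47e-05). In DKO_CD they were 12.4 to 33.0 and 43.1 to 59.7 FPKM (1.25, adjusted p = 0.00868), and this call was lost without Fb replicate 1 (adjusted p = 0.125) and without Mb replicate 3 (0.0582). The 33.0 FPKM was in Fb replicate 2, which had the lowest forebrain sum of its group. Among the DKO_CD Fb libraries it also had the highest Slit1 (2.78 FPKM) and Unc5c (2.03 FPKM) and the lowest Unc5b (7.33 FPKM).

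Genes of the floor plate, a known source of Ntn1, did not all move with it. Of the 6 genes read, 2 were higher and 1 was lower in the WT Mb by limma. In the WT Mb, Foxa2 (11.7 against 4.28 FPKM) and Spon1 (11.2 against 5.70 FPKM) were higher. Shh, the most abundant of the 6, was at 12.9 and 13.4 FPKM (difference -0.08, limma adjusted p = 0.913). The 6 genes summed to 31.4 to 42.6 FPKM in the WT Fb and 30.3 to 61.3 FPKM in the WT Mb. Their part in the level of Ntn1 was not tested.

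The netrin receptors Neo1 and Dcc differed widely in level. Neo1 was at 14.8, 14.1, 12.4, 12.6, 11.4 and 14.4 FPKM in the WT Fb and 14.0, 18.0, 16.6, 13.7, 15.7 and 13.5 FPKM in the WT Mb. These ranges overlapped, as did those of the 3 mutant groups. The difference in WT was 0.19 (SE 0.093, adjusted p = 0.25), and in the mutants it lay between 0.00 and 0.20 with adjusted p-values of 0.567 to 1. All 32 values were between 11.4 and 18.2 FPKM.

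Dcc was low everywhere and was tested by itself. In the WT Fb it was listed at 0.0684, 0, 0.149, 0.0695, 0.118 and 0 FPKM and in the WT Mb at 0.173, 0.566, 0.456, 0.152, 1.33 and 0.535 FPKM. All 6 Mb libraries were above all 6 Fb libraries, though the closest pair, 0.149 and 0.152 FPKM, was nearly equal. A two-sided exact permutation test gave p = 0.00216, the smallest that 6 against 6 allows, or 0.00864 when adjusted over the 4 groups. The values rest on an estimated 0 to 4.1 fragments in each WT Fb library and 4.4 to 36.8 in each WT Mb library. WT Mb replicate 5 had the highest Dcc of the 32 libraries. Without it the exact permutation p was 0.00433. In a limma fit of all genes with no filter on low values, the WT difference of 0.485 had an adjusted p of 0.059. In each mutant group the Fb and Mb values overlapped. In the same fit the mutant contrasts differed from that in WT by -0.64 in TKO_Ex (unadjusted p = 0.0114, adjusted p = 0.763), -0.32 in DKO_Ex (adjusted p = 1) and -0.50 in DKO_CD (adjusted p = 0.959), so they are not shown to differ from WT. In TKO_Ex the Fb had 0.236, 0.402, 0.405 and 0.500 FPKM and the Mb 0.0921, 0.252, 0.0980 and 0.574 FPKM (exact permutation p = 0.286). The exact p was 0.6 in DKO_Ex and 1 in DKO_CD, where 3 against 3 cannot go below 0.1. All 4 TKO_Ex Fb libraries were above all 6 WT Fb libraries, a separation that 2.23% of all genes tested showed. In the fit with no filter, that mutant difference of 0.375 had an unadjusted p of 0.0333 and an adjusted p of 0.569.

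Of the Slit ligands, Slit1 was higher in the Mb. It was at 0.348, 0.711, 1.09, 1.38, 0.887 and 0.270 FPKM in the WT Fb and 4.95, 6.68, 5.22, 4.88, 6.82 and 3.09 FPKM in the WT Mb. The groups did not overlap, and the mean in the Mb was 6.76 times that in the Fb (difference 1.82, SE 0.283, adjusted p = 3.42e-05). In TKO_Ex the ranges were 0.632 to 1.39 FPKM in the Fb and 2.73 to 8.89 FPKM in the Mb (1.70, adjusted p = 0.00197). In DKO_CD they were 0.270 to 2.78 and 5.10 to 9.66 FPKM (1.82, adjusted p = 0.00759). In DKO_Ex the tissues overlapped. Fb replicate 2, at 3.12 FPKM, was above Mb replicate 3, at 2.88 FPKM, and the other Fb libraries were at 0.360 and 0.401 FPKM (1.42, adjusted p = 0.0379). That call was lost without Fb replicate 1 (adjusted p = 0.213), Fb replicate 3 (0.201), Mb replicate 1 (0.204) or Mb replicate 2 (0.104), and with a pseudocount of 5 (0.0727), no filter (0.0663) or quantile normalization (0.05). In DKO_CD it was lost without Fb replicate 1 (0.097) or Mb replicate 2 (0.056).

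Slit2 and Slit3 did not pass the test between the tissues in any group. Slit2 was at 4.8, 4.92, 5.17, 5.59, 4.99 and 10.2 FPKM in the WT Fb and 3.29, 6.63, 6.58, 5.79, 7.71 and 6.23 FPKM in the WT Mb, with overlapping ranges and a difference of 0.03 (SE 0.197, adjusted p = 0.966). Slit3 was at 1.17 to 1.75 FPKM in 5 WT Fb libraries and at 7.14 FPKM in the sixth, replicate 4. In the WT Mb it was at 1.17 to 1.98 FPKM, and the difference of -0.16 (SE 0.246, adjusted p = 0.791) turned to 0.13 without that library. In DKO_CD each Mb library of Slit2, at 8.89 to 12.9 FPKM, was above each Fb library, at 5.20 to 7.29 FPKM (difference 0.70, unadjusted p = 0.0182, adjusted p = 0.277). In TKO_Ex each Mb library of Slit3 was above each Fb library, with a ratio of means of 1.70 (difference 0.52, adjusted p = 0.474). Slit1 made up 2.31% to 14.0% of the summed Slit FPKM in the WT Fb and 27.9% to 48.7% in the WT Mb. Over all groups its share was at most 35.2% in the 16 Fb libraries and at least 25.0% in the 16 Mb libraries. Slit1 was above Slit2 in 0 of 16 Fb libraries and in 5 of 16 Mb libraries.

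Beside Slit1, Unc5c and Ntn1, neuronal genes were also higher in the Mb. Of 9 listed genes, 8 were found and tested, and 7 were higher in the WT Mb (Stmn2, Pou4f1, Nhlh1, Elavl3, Elavl4, Dcx and Gap43). Their median difference was 1.83, against 0.00 over all genes tested. The 8 genes summed to 25.9 to 43.4 FPKM in the WT Fb and 69.9 to 142 FPKM in the WT Mb, and none of them was listed at 0 throughout a group. Gap43, the most abundant, was at 21.7 and 32.0 FPKM. Roof plate genes were higher too (5 of 6), with sums of 34.0 to 53.5 and 64.6 to 101 FPKM, with Msx1 the most abundant. Of 6 progenitor genes, 3 were higher (Nes, Fabp7 and Hes5) and 1 lower in the WT Mb, with sums of 233 to 316 FPKM in the WT Fb and 357 to 483 FPKM in the WT Mb and Sox2 the most abundant. The part of neurons, progenitors and roof plate in the levels of the members was not tested.

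Robo1 did not pass the test between the tissues in any group. This gene, the main Slit receptor by level in 14 of 16 Fb and 16 of 16 Mb libraries, was at 6.32, 5.27, 5.50, 5.84, 4.8 and 5.87 FPKM in the WT Fb and 5.75, 9.71, 6.01, 7.25, 6.27 and 5.96 FPKM in the WT Mb. The ranges overlapped, and the difference of 0.23 (SE 0.11) had an adjusted p of 0.228. In TKO_Ex it was 0.42 (adjusted p = 0.074), in DKO_Ex 0.51 (0.0634) and in DKO_CD 0.26 (0.62). In both double knockout groups each Mb library was above each Fb library. Leaving out TKO_Ex Mb replicate 4 brought the adjusted p to 0.0352, and leaving out DKO_Ex Fb replicate 2 brought it to 0.0355. In TKO_Ex Robo1 also passed with median-of-ratios scaling (adjusted p = 0.0457) and with quantile normalization (0.0407).

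Robo2 passed the test between the tissues in TKO_Ex and in no other group. In TKO_Ex its Fb libraries had 3.63, 7.05, 2.84 and 2.53 FPKM and its Mb libraries 1.31, 1.01, 1.32 and 1.01 FPKM, without overlap, a difference of -1.14 (SE 0.311, adjusted p = 0.0271). In WT it was at 2.04 to 2.85 FPKM in 5 Fb libraries, at 10.4 FPKM in Fb replicate 5, and at 3.24, 3.38, 2.99, 2.16, 2.67 and 1.45 FPKM in the Mb, a difference of -0.24 (SE 0.254, adjusted p = 0.674) that turned to 0.05 without Fb replicate 5. The test of the difference between these 2 contrasts gave -0.90 (SE 0.401) with an unadjusted p of 0.0334 and an adjusted p of 0.705, so the contrast in TKO_Ex is not shown to differ from that in WT. The TKO_Ex call was lost without Fb replicate 1 (adjusted p = 0.058), Fb replicate 2 (0.145), Mb replicate 2 (0.0689) or Mb replicate 4 (0.0742), without both libraries labelled replicate 3 (0.0551), and with a pseudocount of 5 (0.0882). In DKO_Ex and DKO_CD the differences were -0.39 and -0.46, and the ranges of the 2 tissues overlapped. With single libraries left out these differences ran from -0.535 to -0.112 in DKO_Ex and from -0.669 to -0.292 in DKO_CD.

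**Figure D3:**
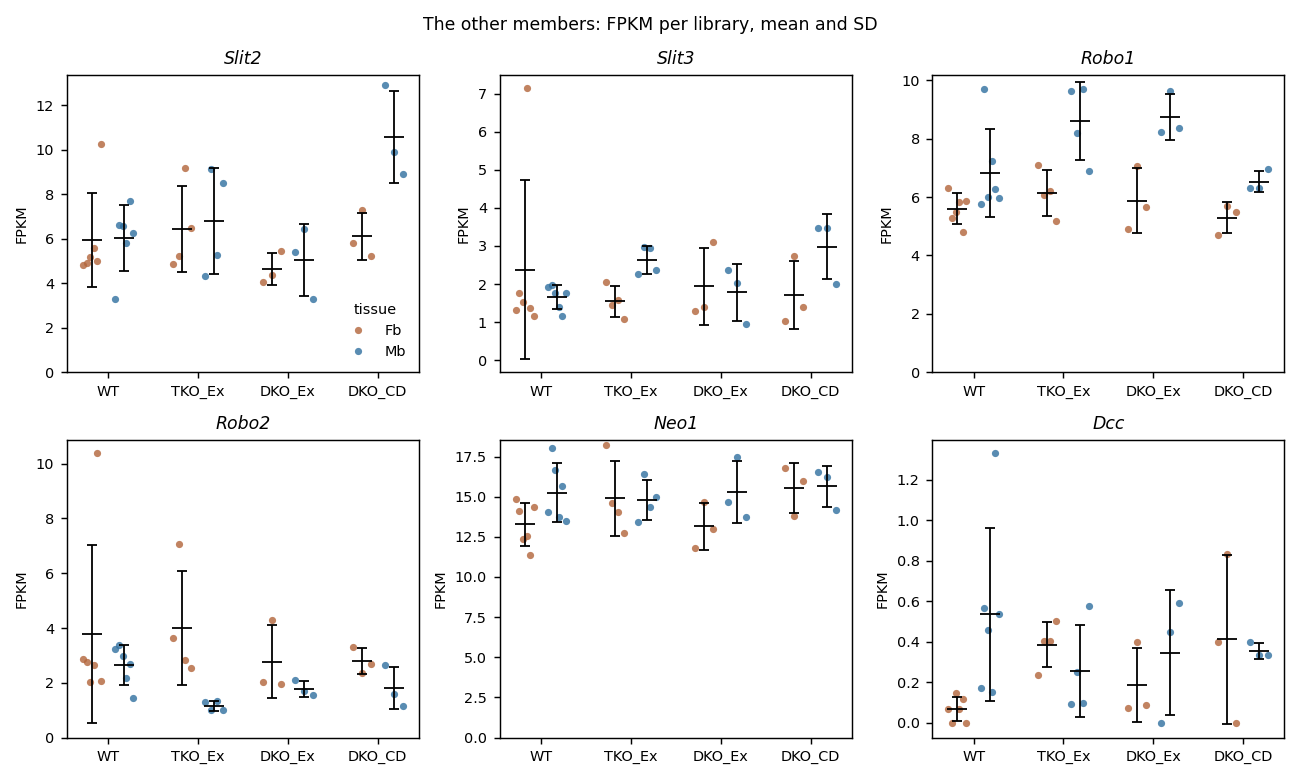
FPKM of Slit2, Slit3, Robo1, Robo2, Neo1 and Dcc (y axes) in each of the 32 libraries by group (x axes), Fb in brown and Mb in blue, with black bars for the mean and SD. Single high Fb libraries stand out for Slit2 (10.2 FPKM), Slit3 (7.14 FPKM) and Robo2 (10.4 FPKM) in WT.

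Counted together, 4 of the 9 tested members changed between the WT tissues, 3 higher and 1 lower in the Mb, where 9.63% of all 13441 genes tested did (5.33% higher and 4.29% lower). In TKO_Ex 3 members were higher and 2 lower in the Mb, where 4.93% of all genes changed (2.63% higher and 2.3% lower). In DKO_Ex 3 were higher and 1 lower, with 4.03% of all genes (2.72% and 1.31%), and in DKO_CD 3 were higher and 1 lower, with 2.69% (1.52% and 1.18%). Unc5b, Unc5c, Ntn1 and Slit1 were the 4 called in all groups. Without WT Mb replicate 5 these 4 were called in WT, and without both libraries labelled TKO_Ex replicate 3 they were the 4 called in TKO_Ex. Grouping the DKO libraries by record exchanges the 2 DKO groups and leaves 4 members called in each. With only the 2 compared groups in the fit, 4 members were called in WT, 3 in TKO_Ex (Unc5b, Ntn1 and Slit1), 2 in DKO_Ex (Unc5b and Ntn1) and 1 in DKO_CD (Unc5b). The Fb and Mb libraries of a group did not overlap for 5 of 10 members in WT, 5 in TKO_Ex, 4 in DKO_Ex and 6 in DKO_CD. The same was true of 5.59%, 8.87%, 20.4% and 15.3% of all genes tested. The members are not replicates of each other, and these counts describe them without a test. Groups with fewer libraries separate more often.

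The tissue contrast of a mutant group was not shown to differ from that in WT for any member. All 3 such differences of contrasts were tested, and 0 of 13441 genes (0%) passed in each by limma, while 921, 502 and 639 genes had an unadjusted p under 0.05 in TKO_Ex, DKO_Ex and DKO_CD (6.85%, 3.73% and 4.75%). Among the members this was 1 (Robo2), 0 and 0. For Unc5b the differences from the WT contrast were -0.20 (SE 0.229), -0.34 (SE 0.251) and 0.02 (SE 0.251) in TKO_Ex, DKO_Ex and DKO_CD. For Unc5c they were -0.41 (SE 0.243), -0.33 (SE 0.266) and -0.02 (SE 0.266). For Ntn1 they were 0.24 (SE 0.311), 0.31 (SE 0.341) and -0.21 (SE 0.341), and for Slit1 -0.12 (SE 0.448), -0.40 (SE 0.491) and 0.00 (SE 0.491). The 3 differences share the WT libraries.

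Mutant and WT libraries were also compared within each tissue, and 0 members changed in any of the 6 comparisons by limma. The share of all genes that did was, for TKO_Ex, DKO_Ex and DKO_CD in turn, 0.283%, 0.0893% and 0.067% in the Mb and 0.238%, 0.0967% and 0.0818% in the Fb. At an unadjusted p under 0.05 there were 2, 2, 1, 1, 0 and 0 of the 9 tested members in the same order, beside 9.52%, 5.7%, 7.37%, 9.51%, 6.5% and 7.79% of all genes. Robo2 was lower in all 4 TKO_Ex Mb libraries (1.01 to 1.32 FPKM) than in all 6 WT Mb libraries (1.45 to 3.38 FPKM), a difference of -0.73 (SE 0.284, unadjusted p = 0.0157, adjusted p = 0.385). Robo1 in the Mb differed from WT by 0.30 in TKO_Ex (unadjusted p = 0.0203, adjusted p = 0.424) and by 0.33 in DKO_Ex (unadjusted p = 0.0206, adjusted p = 0.802).

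Slit2 was higher in all 3 DKO_CD Mb libraries, at 12.9, 9.90 and 8.89 FPKM, than in the 6 WT Mb libraries, at 3.29 to 7.71 FPKM. That difference of 0.73 (SE 0.241) had an unadjusted p of 0.00513 and an adjusted p of 0.412. Grouped by record, these 3 libraries belong to DKO_Ex, and Slit2 in the DKO_CD Mb then differed from WT by -0.22. The 7 mesenchyme and neural crest genes summed to 96.7 to 144 FPKM in the same libraries against 59.6 to 98.9 FPKM in the WT Mb, with Twist1 the most abundant. Of the 7, 0 passed the test and 5 had an unadjusted p under 0.05, with a median difference of 0.58. Their part in the levels of Slit2 and Slit3 was not tested. The remaining members under 0.05 unadjusted were Unc5b in the DKO_Ex Mb (-0.40, unadjusted p = 0.0327, adjusted p = 0.819) and Unc5c in the TKO_Ex Fb (0.45, unadjusted p = 0.0146, adjusted p = 0.368). Slit3 did not overlap with WT in the TKO_Ex Mb (2.27 to 2.96 against 1.17 to 1.98 FPKM) and the DKO_CD Mb (2.0 to 3.48 FPKM), with adjusted p-values of 0.654 and 0.704. In all, 2 of 10 members did not overlap with WT in the TKO_Ex Mb and 2 in the DKO_CD Mb, where 1.74% and 3.39% of all genes tested did not. The mutant comparisons share their WT libraries.

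**Figure D4:**
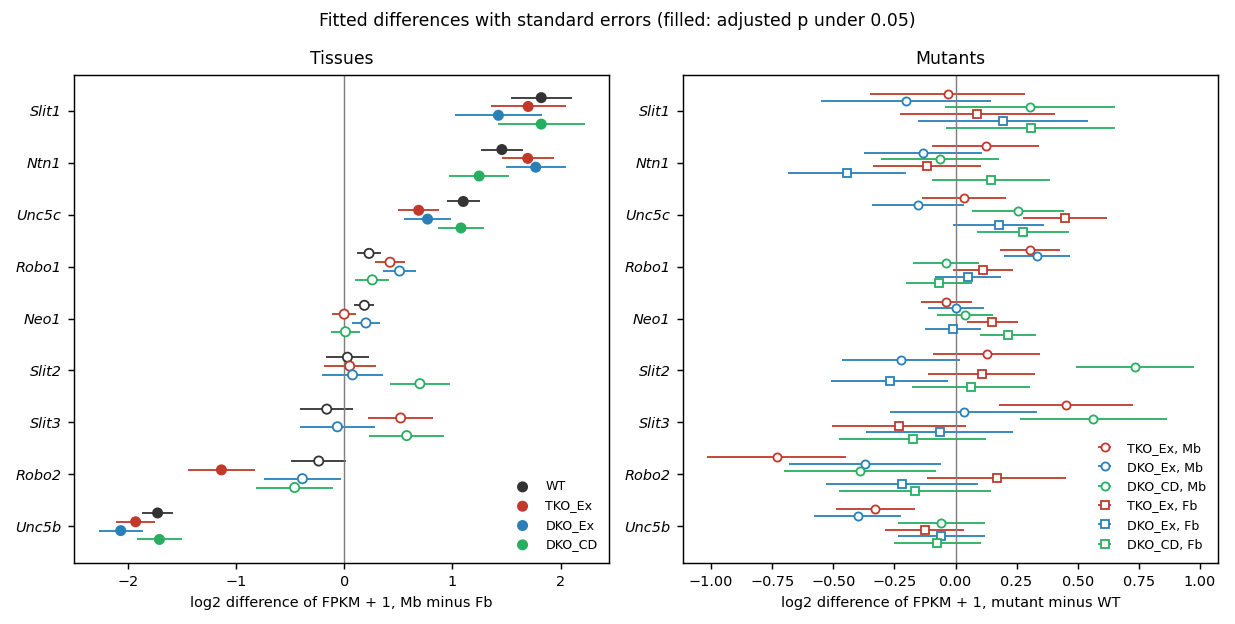
Fitted log2 differences of FPKM + 1 with standard errors (x axes) for the 9 tested members (y axes), Mb minus Fb in the 4 groups on the left and mutant minus WT on the right (circles, Mb; squares, Fb); filled symbols have an adjusted p under 0.05. On the left Slit1, Ntn1 and Unc5c lie above 0 and Unc5b below 0 in all 4 groups, and on the right no symbol is filled.

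Other genes of the Slit-Robo and netrin pathways were read from a list of 45, of which 36 passed the filter. In WT 9 of the 36 were higher in the Mb and 0 lower, where 5.33% of all genes were higher and 4.29% lower, with a median difference of 0.05 over the list against 0.00 over all genes. Srgap3 and Srgap1, GTPase-activating proteins that bind Robo receptors, differed by 1.87 (18.9 against 4.38 FPKM) and 0.89 (7.33 against 3.48 FPKM). Draxin, a secreted guidance protein that binds netrin receptors, differed by 1.71 (5.46 against 0.869 FPKM). Rgmb and Rgma, ligands of neogenin, differed by 1.33 (14.5 against 5.13 FPKM) and 1.01 (57.1 against 28.1 FPKM). Flrt1 and Flrt2, membrane proteins of a family that binds UNC5 receptors, differed by 1.42 (2.82 against 0.416 FPKM) and 0.62 (10.8 against 6.67 FPKM). Nell2, a ligand of Robo3, differed by 0.78 (6.65 against 3.37 FPKM), and the heparan sulphate proteoglycan Sdc3 by 0.61 (22.1 against 14.0 FPKM). All 9 had adjusted p-values of 0.0215 or less.

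The mutant groups had 7, 8 and 6 list genes higher in the Mb in TKO_Ex, DKO_Ex and DKO_CD, and 0 lower, where 2.63%, 2.72% and 1.52% of all genes were higher. The genes called in all 4 groups were 6, namely Srgap1, Srgap3, Flrt1, Flrt2, Rgmb and Sdc3. Shared downstream genes such as Rac1 (157 FPKM in the WT Fb and 164 FPKM in the WT Mb), Cdc42 (182 and 187 FPKM) and Dag1, which encodes dystroglycan (39.3 FPKM in both), did not pass the test between the WT tissues. Robo4, the endothelial Robo, was at 1.31 and 1.13 FPKM (difference -0.14, adjusted p = 0.794). In the 3 differences of contrasts and the 6 mutant comparisons, 0 of the 36 changed by limma, with 0 to 3 of them at an unadjusted p under 0.05 in each, where 3.73% to 9.52% of all genes were.

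**Figure D5:**
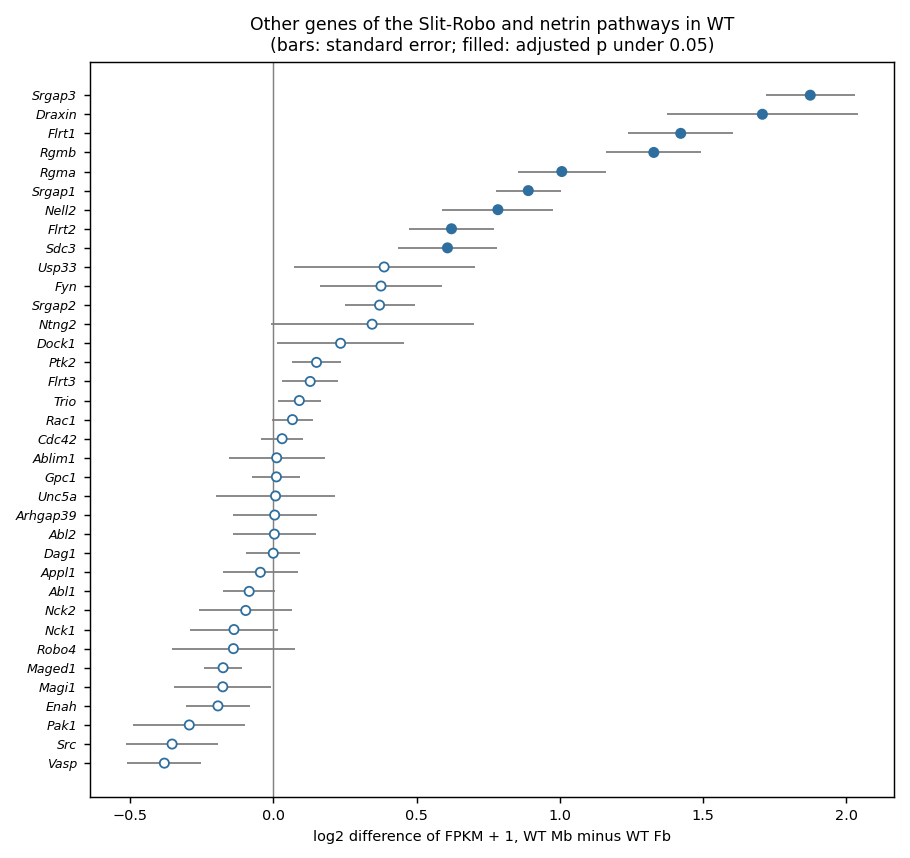
Log2 difference of FPKM + 1 between the WT Mb and the WT Fb (x axis) for the 36 other pathway genes that passed the filter (y axis), with standard errors; filled symbols have an adjusted p under 0.05. The 9 filled symbols, from Sdc3 at 0.61 to Srgap3 at 1.87, all lie above 0.

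The genes whose levels ran most like those of a member over the 32 libraries were found by Pearson's r of log2(FPKM + 1) among genes that averaged 5 FPKM or more. Among the 3 genes most like Unc5b were Shisa2 and Six3 (r = 0.97 each). Unc5c was closest to Pax3 and Jam2 (0.93 each), Ntn1 to Irx5 (0.94), BC024139 and Irx3 (0.93 each), and Slit1 to Id2 (0.90), Irx5 and Fzd10 (0.89 each). The libraries share 2 tissues, and much of each r is the step between them. Within the 16 Mb libraries r fell to 0.24 for Unc5b and Shisa2, -0.01 for Ntn1 and Irx5, and 0.40 for Slit1 and Id2, but was 0.61 for Unc5c and Pax3. Within the 16 Fb libraries these 4 pairs had r of 0.60, 0.75, 0.63 and 0.87. The members not called in WT had lower maxima, with Gprc5b for Robo1 (0.76), Usp22 for Neo1 (0.79), Vps25 for Slit3 (0.65), Cct7 for Robo2 (0.62) and Cxxc4 for Slit2 (0.59).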

How the data were processed

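The authors made directional libraries, aligned the reads with TopHat2 to GRCm38 (mm10) and computed the deposited FPKM with Cufflinks, which scales to length and mapped fragments. Their own test, of HTSeq counts with DESeq2, was not repeated. Versions and annotation are not given in the sources used here. The FPKM of 65 repeated identifiers were summed, and 48218 of 48576 identifiers were named by GENCODE M21. Depth was estimated from 771 single-transcript genes of at least 4000 bp, whose low values fell within 0.1 of a whole fragment for 88.3% to 95.7% of values per library. Counts of fragments behind a value use the longest transcript and are approximate.

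All 32 libraries were fitted together by limma 3.58.1 (R 4.3.3) with 8 group means and a mean-variance trend on log2(FPKM + 1) of the genes whose mean reached 1 FPKM, in 13 comparisons. On simulated FPKM with 200 changed genes, a log2 difference of 1 was recovered for 87.5% of the changed genes in WT, 71.1% in TKO_Ex, 58.7% in DKO_Ex and 64.7% in DKO_CD. The simulation gave every gene and group the same dispersion of 0.02, the spread between libraries beyond counting. Real spread was wider in places, as for Ntn1 in the DKO_CD Fb (mean 22.15 FPKM, SD 10.36 FPKM). These rates can therefore overstate the recovery in these data. Dcc was tested by exact permutation (SciPy 1.17.1, Python 3.11.15). Named were all 10 members, the pathway genes called between the WT tissues, and the 3 genes most like each member (for members not called in WT, the first). Some genes that this rule or the marker lists would name are not reported here. Other genes, among them the marker genes, Rac1, Cdc42, Dag1, Robo4, Unc5a and Unc5d, were picked after their values were seen. The members and lists were chosen with earlier results of these data known. The genes Ntn3, Hjv and Tubb3 of the lists were not matched by symbol. Same-numbered samples were not treated as paired. P-values measure only the spread between libraries within groups. For limma this spread was pooled over all 8 groups of the fit and moderated across genes. Genotyping from yolk sacs after collection points to 1 embryo a sample, but the sources used here do not state it.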

Additional observations from a re-analysis of the deposited data

Results flagged for a closer look

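Each member was looked at for a library far from the others in the WT and TKO_Ex groups, 40 groups of libraries in all, by Dixon's test, and 7 libraries stood out. Chance flags about 1 in 20 such groups. In the WT Fb these were Slit2 in replicate 6 (10.2 FPKM, the next at 5.59), Slit3 in replicate 4 (7.14 FPKM, the next at 1.75) and Robo2 in replicate 5 (10.4 FPKM, the next at 2.85), each in another library. In the WT Mb it was Dcc in replicate 5 (1.33 FPKM, the next at 0.566), the library with the lowest sum of midbrain genes in its group (43.5 FPKM against 115 to 227 FPKM). In TKO_Ex they were Slit1 in Fb replicate 4 (1.39 FPKM, the next at 0.758), Unc5b in Fb replicate 1 (13.3 FPKM, the next at 8.86) and Unc5b in Mb replicate 3 (2.43 FPKM, the next at 1.60), of which the last is a library whose Cdh6 was within the WT range. TKO_Ex Fb replicate 4 had the lowest forebrain sum of its group, at 134 FPKM. The estimated fragments behind the 3 high WT Fb values were 292 for Slit2, 103 for Slit3 and 205 for Robo2. No cause was tested.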

How the results depend on the processing

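The 4 calls between the WT tissues (Unc5b, Unc5c, Ntn1 and Slit1) were made under every alternative but a mean of at least 5 FPKM, which Slit1 and Unc5c do not reach, so that 2 members were called there in each of the 4 groups. With any library left out, the count stayed at 4 in WT, was 3 to 5 in TKO_Ex, and 2 to 4 in DKO_Ex and in DKO_CD. With only the compared groups in the fit, it was 3 in TKO_Ex, 2 in DKO_Ex and 1 in DKO_CD, where fewer libraries set the spread. In DKO_Ex it was also 2 with no filter and with quantile normalization. The counts of changed members in the differences of contrasts and in the mutant comparisons were 0 under every alternative run. Pseudocounts of 0.1 and 5, median-of-ratios scaling, no mean-variance trend and leaving out both TKO_Ex libraries of number 3 kept each count within 1.5 times, but some of these settings ended single calls. These were Unc5c in DKO_Ex (pseudocount 0.1 and median-of-ratios scaling) and in TKO_Ex (pseudocount 0.1), Slit1 in DKO_Ex (pseudocount 5) and Robo2 in TKO_Ex (pseudocount 5, and without the libraries of number 3). The sizes of the differences moved more. Over the alternatives other than single libraries left out, Slit1 in WT ran from 0.822 to 2.73 and Unc5c in WT from 0.468 to 1.64. Unc5b in WT ran from -2.06 to -1.04, and Robo2 in TKO_Ex from -1.60 to -0.523.

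Several differences that had not passed the test changed sign. Over members and settings this happened 9, 24 and 34 times in the differences of contrasts of TKO_Ex, DKO_Ex and DKO_CD. In the same order it happened 11, 18 and 11 times against WT in the Mb and 8, 17 and 12 times in the Fb. Only the reversals between the tissues, and those of Robo1 and Slit2 against WT, are named here. With quantile normalization the tissue differences that changed sign were Slit2 in WT (-0.012) and Neo1 in TKO_Ex (0.009). Grouping the DKO libraries by record exchanges DKO_Ex and DKO_CD, and then Slit3 between the tissues was 0.58 in DKO_Ex and -0.064 in DKO_CD, Robo1 in the DKO_Ex Mb against WT was -0.038, and Slit2 in the DKO_CD Mb against WT was -0.22. With single libraries left out, Slit2 ran from -0.038 to 0.18 in WT, -0.095 to 0.22 in TKO_Ex and -0.092 to 0.30 in DKO_Ex, Slit3 from -0.25 to 0.13 in WT and -0.22 to 0.21 in DKO_Ex, Robo2 from -0.33 to 0.05 in WT, and Neo1 from -0.068 to 0.093 in TKO_Ex and -0.066 to 0.077 in DKO_CD. With a pseudocount of 0.1 the difference of Dcc in DKO_CD was 0.33 instead of -0.02 (exact permutation p = 0.9). The cause was not tested.

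Fb and Mb libraries of a group share replicate numbers. The deviations of same-numbered libraries from their group means correlated at -0.01 to 0.20, and 12 of 16 libraries correlated best with their own number. No chance value was computed for that count. Since only 10 of 16 pairs correlated over 0.1, the numbers were not taken as pairs over the series, and a replicate block was run as an alternative. In DKO_Ex alone all 3 pairs were over 0.1 (0.105 to 0.20) and all 3 libraries correlated best with their own number. With the replicate block, 4 members were called in TKO_Ex and 3 in DKO_Ex, and 4 in WT and in DKO_CD. The call lost was Unc5c in both TKO_Ex (adjusted p = 0.0659) and DKO_Ex (0.0868), and the block changed no other call of a member. Depth limits Dcc, Slit3 and the low sides of Slit1, Unc5c, Unc5b and Robo2, since their values rest on few fragments. In the TKO_Ex Mb, Robo2 rested on an estimated 20.3 to 23.9 fragments in each library and Unc5b on 18.0 to 28.1. No alternative could be fitted to the read counts, which were not used here.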
